A study of Mus musculus with 12 samples.

Results

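The cells described here are Havcr2+ Pdcd1+ Tcf7- Mki67- CD8 T cells from the pancreatic islets of non-obese diabetic (NOD) mice. They were chosen by the measured unique molecular identifiers (UMIs, each standing for 1 captured RNA molecule) of 4 genes. A cell was taken if it held at least 1 UMI of Havcr2 (TIM-3) and at least 1 of Pdcd1 (PD-1), and none of Tcf7 (TCF-1) or Mki67 (Ki-67). Only cells with under 5% mitochondrial UMIs were kept, with 200 to 3500 genes in islet libraries and 200 to 2000 in spleen libraries. This gate took 823 of 18163 kept islet cells, of 24117 kept cells and 26818 barcodes in the 6 single-cell RNA libraries of the series. Because the gate used the counts themselves, every difference in gene level between gated and other cells of a library is given as a description, with no test. Tests are kept for the tetramer sort and the T cell receptor, which the gate did not use. The interaction and T cell receptor tests still set gated against other cells, so the gate defines the groups they compare.

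Islets and spleens were pooled from 10 prediabetic NOD/ShiLtJ females aged 10 to 15 wk in each of 2 rounds. From each pool, CD45.1+ cells lacking CD4, B220 and CD11b and bearing CD8 were sorted by binding of the NRP-V7 Kd tetramer, which presents a mimic of a peptide of the islet protein IGRP. Each round gave 1 tetramer-positive and 1 tetramer-negative islet library and 1 tetramer-positive spleen library, and each RNA library had a matched T cell receptor (TCR) library. The labels name 1 strain and no treatment, and a library is a pool in which single animals cannot be told apart, so that the spread between rounds is the spread between pools.

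TIM-3 and PD-1 are inhibitory receptors that T cells place on their surface after repeated antigen contact. PD-1 recruits phosphatases that dampen TCR and CD28 signaling, and TIM-3 is used to mark the more differentiated end of the exhausted CD8 T cell series, in which TCF-1 is lost and chemokine receptors of tissue-resident cells and cytotoxic molecules are gained. TCF-1, by contrast, marks the stem-like or progenitor cells from which the TIM-3+ cells arise. In autoimmune diabetes such cells are studied in the islet lesion, where CD8 T cells attack beta cells.

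The gated cells numbered 197 of 6429 cells in tetramer-negative round 1, 293 of 8932 in tetramer-negative round 2, 128 of 1204 in tetramer-positive round 1 and 205 of 1598 in tetramer-positive round 2. As shares these were 3.06% (exact Clopper-Pearson 95% interval 2.66 to 3.52), 3.28% (2.92 to 3.67), 10.6% (8.95 to 12.5) and 12.8% (11.2 to 14.6), where the intervals cover counting error only. Both tetramer-positive libraries lay above both tetramer-negative libraries. The mean share was 11.7% ± 1.55 (SD, n = 2) against 3.17% ± 0.153 (SD, n = 2), a difference of 8.56 percentage points and a ratio of 3.70. The exact permutation test over libraries gave a two-sided p of 0.333, the smallest that 2 libraries against 2 allow, and the difference was 7.57 points within round 1 and 9.55 within round 2. With each cell thinned to 1000 UMIs the shares were 0.694%, 0.577%, 2.55% and 2.57% in the same order, and the ratio was 4.02. In the tetramer-positive spleen libraries, where cells of over 2000 genes were left out, the gate took 1 of 3524 cells and 3 of 2430. Gated islet cells had medians of 1989, 2133, 1774.5 and 2090 genes in the same order, so that limit would leave out many such cells. Islet and spleen shares are therefore not on the same filter.

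**Figure D1:**
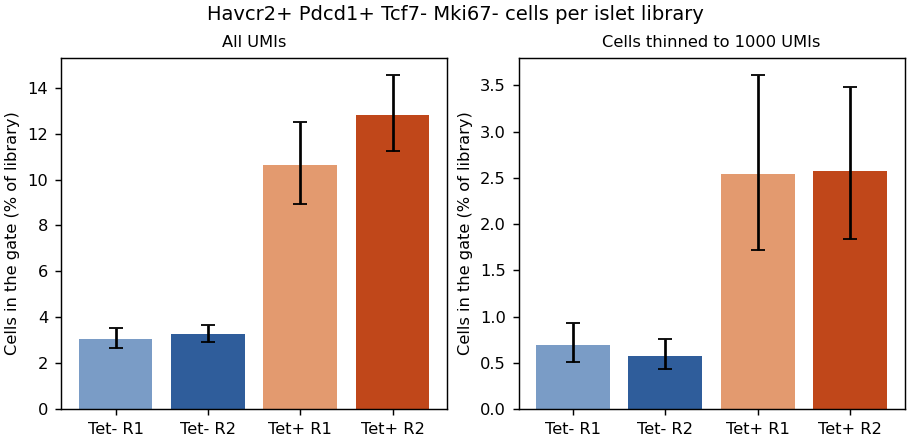
Share of kept cells in the Havcr2+ Pdcd1+ Tcf7- Mki67- gate (%, y axis) in the 4 islet libraries (Tet, tetramer; R, round), with all UMIs at left and with each cell thinned to 1000 UMIs at right. Bars are shares and error bars are exact 95% intervals, and both tetramer-positive libraries (10.6% and 12.8%) stand above both tetramer-negative ones (3.06% and 3.28%).

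The gated cells held more RNA than the other cells of their library. Their median UMI count was 5090, 5415, 4789.5 and 5425 in the 4 islet libraries (tetramer-negative rounds 1 and 2, then tetramer-positive rounds 1 and 2, the order used throughout), against 3775.5, 3837, 3664.5 and 3963 in the others. Levels below are therefore given as CPM, the UMIs of a gene in the summed cells scaled to their total. The summed gated cells held 717745 to 1686229 UMIs per library.

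The label was checked against its markers, of which Havcr2 and Pdcd1 were fixed by the gate. Havcr2 (GRCm38 chr11:46454935-46481255, + strand) stood at 302, 349, 302 and 364 CPM in gated cells, and Pdcd1 (chr1:94038305-94052553, - strand) at 884, 782, 835 and 1001. Cxcr6 (chr9:123806475-123811760, + strand), the receptor for CXCL16 that retains T cells in tissue, had at least 1 UMI in 90.9% to 94.6% of gated cells and 25.2% to 46.0% of other cells. Entpd1 (chr19:40612366-40741602, + strand), which encodes the ATP-degrading ectoenzyme CD39, had a UMI in 48.2% to 60.0% of gated cells and 7.41% to 23.0% of others. Both were detected in 411 of the 823 cells, and neither in 40. CD8 T cell genes were present throughout: 788 gated cells held a UMI of Cd8a and all 823 one of Cd3d, Cd3e, Cd8a or Cd8b1.

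Entry to the gate often rested on a single molecule of Havcr2, which was the only one in 121, 151, 72 and 105 of the gated cells. Just inside the threshold, cells with 1 Havcr2 UMI had a mean over libraries of 1055 CPM Cxcr6, 179 CPM Entpd1 and 527 CPM Gzmb. Cells with more Havcr2 UMIs had 1277, 174 and 590 CPM of the same genes. Just outside it, the 3540 Pdcd1+ Tcf7- Mki67- cells with no Havcr2 UMI had 600 CPM Cxcr6, 76.4 CPM Entpd1 and 204 CPM Gzmb. At the Pdcd1 edge, the 380 Havcr2+ cells with no Pdcd1 UMI had 758, 160 and 575 CPM of these genes, close to gated cells for Entpd1 and Gzmb. A Havcr2 UMI was seen in 18.9% of all Pdcd1+ Tcf7- Mki67- cells and in 380 of 10785 Pdcd1- cells (3.52%), a mixed population that need not lack it, at median depths of 3839 and 3646 UMIs.

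RNA of other cell types was measured in the gate. Defining genes of B cells (Ms4a1), of NK cells (Ncr1, Klrb1c) and of CD4 T cells (Cd4) were at 0 in the gated cells of every library. Other genes of these lists were not all at 0. The list of 4 CD4 and regulatory T cell genes, of which 1 was at 0, summed to 0.90, 8.90, 0 and 1.68 CPM in gated cells. In the other cells it summed to 2.35, 2.19, 0.58 and 0.88 CPM. The summed myeloid and antigen-presentation list stood at 763, 212, 20.9 and 46.3 CPM in gated cells against 84.2, 83.4, 36.0 and 84.5 in the others. Gated cells with at least 10 UMIs of class II genes numbered 2, 4, 0 and 0, so class II transcripts moved with the tetramer groups. The exocrine list, RNA of pancreatic acinar enzymes, summed to 62.7, 164, 55.7 and 279 CPM in gated cells. The B cell list summed to 68.1, 51.6, 34.8 and 40.4 CPM, the endocrine list to 4.5, 5.3, 8.4 and 1.7, and the NK list to 181, 221, 111 and 167, most of it Eomes, which CD8 T cells also express. In all, 317 barcodes occurred in more than 1 RNA library, 25 of them on gated cells.

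Compared with the other cells of the same library, 12 of 8652 genes were at least 2-fold higher in gated cells in 4 of 4 libraries (0.139%) and 17 were at least 2-fold lower (0.196%), after 5 CPM were added to both sides. Log2 ratios below are on this scale, which understates the change of low genes, and are means ± SD over 4 libraries. With any size of difference counted, 22.1% of genes were higher in 4 of 4 libraries and 13.8% were lower. Apart from the markers, the higher genes joined cytotoxic mediators (Gzmb, Fasl), a chemokine (Ccl4), a chemokine receptor (Ccr2), the transcription factor Prdm1 and the receptors Adgrg1 and Glp1r. Among the lower genes were Plaur, Nsg2 and Aff3, the lymph node receptor Ccr7, and Il7r and Lef1 of naive and memory cells.

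Most cytotoxic genes were higher in the gate. Gzmb, the granzyme that cleaves caspases in target cells, stood at 617, 581, 493 and 555 CPM in gated cells against 104, 154, 143 and 165 in others (log2 ratio 1.97 ± 0.37). The gated levels spanned a narrow range in all libraries and did not overlap those of the other cells. Fasl, which triggers the death receptor Fas, was at 196, 200, 159 and 231 CPM against 53.5, 65.1, 63.0 and 97.9 (1.45 ± 0.27). Prf1, the pore-forming perforin, was at 84.2, 110, 92.0 and 116 CPM against 42.1, 48.3, 43.0 and 45.9 (1.08 ± 0.14). Nkg7, a granule membrane protein, was higher by 1.11 ± 0.46. Of 17 genes tested in this list, 13 were higher in 4 of 4 libraries and 1 lower, with a median log2 ratio of 0.86 against 0.05 over all genes.

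Among chemokines, Ccl4, an inflammatory chemokine (MIP-1 beta), stood at 1477, 716, 559 and 615 CPM in gated cells against 141, 147, 257 and 289 in others (1.94 ± 1.08). Its gated level was highest in tetramer-negative round 1. Ccl5, a more abundant inflammatory chemokine (RANTES), was at 22437, 19318, 27595 and 24517 CPM against 8741, 7285, 16536 and 15759 (1.04 ± 0.40). Ifng, which encodes interferon gamma, was at 239, 129, 110 and 108 CPM against 67.6, 65.2, 72.1 and 78.2 (0.92 ± 0.59). Of 11 cytokine and chemokine genes, 6 were higher in 4 of 4 libraries and 1 lower, with a median of 0.75.

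Of the homing and residence genes, Cxcr6 and Ccr2 were at least 2-fold higher in 4 of 4 libraries, and Ccr7 and S1pr1 at least 2-fold lower. Cxcr6 was at 1014, 1178, 1016 and 1455 CPM in gated cells against 192, 227, 366 and 520 in others (1.91 ± 0.51). Ccr2, which follows CCL2 into inflamed tissue, was at 166, 171, 97.5 and 187 CPM against 58.9, 55.0, 37.4 and 59.0 (1.46 ± 0.14). In the opposite direction, Ccr7, which guides T cells into lymph nodes, was at 49.3, 77.1, 32.0 and 55.5 CPM against 483, 981, 170 and 361 (-2.90 ± 0.60). S1pr1, the receptor for egress into lymph and blood, was at 24.2, 31.4, 5.57 and 4.21 CPM against 154, 183, 17.2 and 17.4 (-1.79 ± 0.72). Within the homing list of 22 genes, 12 were higher and 7 lower in 4 of 4 libraries, with a median of 0.30. The list did not split by tissue entry and recirculation throughout. Cx3cr1 was at least 1.5-fold higher in 4 of 4 libraries. The integrin gene Itgae was at 58.2, 66.4, 5.57 and 24.4 CPM in gated cells against 47.3, 56.7, 6.20 and 21.8 in others.

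Of the inhibitory receptors that the gate did not use, Entpd1 was the 1 gene of its list at least 2-fold higher in every library, at 142, 175, 191 and 194 CPM against 24.9, 27.7, 57.3 and 88.5 (1.88 ± 0.63). Lag3, which binds MHC class II, was at 562, 580, 481 and 723 CPM against 162, 184, 292 and 446 (1.20 ± 0.58). Cd38 (0.99 ± 0.45), an NAD-consuming ectoenzyme, Cd101 (0.92 ± 0.24) and Ctla4 (0.76 ± 0.28), the competitor of CD28, were higher by less. Tigit, a receptor for nectins, was higher in 3 of 4 libraries only (0.39 ± 0.44). Lag3 and Tigit were detected together in 668 of the 823 cells. The list of 17 tested genes held 8 that were higher and 3 that were lower in 4 of 4 libraries, with a median of 0.39.

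Transcription factors differed unevenly. Prdm1, which encodes the effector-cell repressor BLIMP-1, was at 50.2, 108, 55.7 and 90.9 CPM in gated cells against 12.8, 21.3, 24.0 and 34.0 (1.52 ± 0.45). Id2, an inhibitor of E proteins linked to effector cells, was higher by 1.02 ± 0.48. Tox, the factor tied to exhausted T cells, was at 267, 221, 274 and 224 CPM against 155, 121, 312 and 300 (0.25 ± 0.64). Its gated levels were alike in the 4 libraries, above the other cells in both tetramer-negative libraries and below them in both tetramer-positive ones. Of 23 effector and exhaustion factors, 10 were higher and 2 lower in 4 of 4 libraries, with a median of 0.30.

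The progenitor, memory and naive list was lower almost throughout: 16 of 20 tested genes were lower in 4 of 4 libraries and 0 higher, with a median of -1.26. The gate excludes Tcf7 by rule, so this list is tied to the choice of cells. Il7r, the receptor subunit for interleukin-7, was at 14.3, 28.5, 0 and 1.68 CPM in gated cells against 194, 199, 11.2 and 22.1 (-2.42 ± 0.73). Lef1, a partner of TCF-1, was at 22.4, 30.8, 9.75 and 10.9 CPM against 256, 228, 31.4 and 29.3 (-2.09 ± 1.05). Slamf6 (Ly108), a surface marker of progenitor exhausted cells, was lower by 1.42 on the log2 scale (-1.42 ± 0.37), and Id3 was at -1.31 ± 0.40. The lowest of the genes named by rule was Plaur, the urokinase receptor, at 12.6, 26.1, 1.39 and 4.21 CPM against 199, 310, 43.2 and 80.2 (-3.25 ± 0.26). Nsg2 (-2.60 ± 0.13), Aff3 (-2.04 ± 0.66), Tespa1 (-1.81 ± 0.35), a component of TCR signaling, Pou6f1 (-1.49 ± 0.31) and P2rx4 (-1.44 ± 0.32), an ATP-gated channel, completed that set.

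Other membrane proteins were also among the higher genes. Glp1r, the receptor of the incretin GLP-1 best known from beta cells, was at 26.9, 31.4, 54.3 and 40.4 CPM in gated cells against 6.38, 5.47, 17.0 and 14.0 (1.49 ± 0.23). It had a UMI in 124 of the 823 gated cells, while the endocrine marker list summed to at most 8.4 CPM in them. Adgrg1, the adhesion receptor GPR56 of cytotoxic lymphocytes, was at 49.3, 55.2, 41.8 and 70.7 CPM against 6.28, 7.32, 16.9 and 18.7 (1.83 ± 0.57). It had a UMI in 204 cells, 46 of which also had one of Glp1r. Tmem163, a zinc transporter, was at 28.7, 46.9, 25.1 and 51.3 CPM against 6.74, 11.1, 7.75 and 15.6 (1.47 ± 0.18).

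Of 7 killer lectin-like receptor genes 6 were higher in 4 of 4 libraries, among them Klrc1 (0.97 ± 0.53) and Klrd1 (0.92 ± 0.29), the subunits of the inhibitory NKG2A/CD94 pair, and the list's median was 0.83. Of 11 S100, annexin and galectin genes, 10 were higher in 4 of 4 libraries, S100a4 by 1.31 ± 0.53 and S100a6 by 1.22 ± 0.41, with a median of 0.76. Costimulatory receptors had 6 of 13 genes higher and 0 lower (median 0.37), and TIM-3 and PD-1 ligands and signaling partners 5 higher and 1 lower of 10 (0.11). Inhibitors of TCR signaling had 4 higher and 4 lower of 15 (0.18), glycolysis and hypoxia genes 8 and 1 of 13 (0.21), and interferon-stimulated genes 3 and 1 of 13 (-0.10). Cell cycle genes had 0 higher and 10 lower of 20 (-0.48), in a gate that leaves out Mki67 by rule, and the CD8 T cell genes were higher in 6 of 6 (0.36). Of the lists for other cell types, 3 myeloid, 2 B cell, 1 NK, 1 endocrine, 7 exocrine and 0 CD4 or regulatory T cell genes reached the tested level, and 0 of them were 2-fold higher or lower.

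Set against the Pdcd1+ cells outside the gate alone, the leading genes kept their direction with smaller ratios. The median log2 ratio over libraries was 1.72 for Gzmb, 1.65 for Adgrg1, 1.59 for Entpd1, 1.5 for Ccl4 and 1.45 for Cxcr6. The 179 cycling counterparts, Havcr2+ Pdcd1+ Tcf7- cells with an Mki67 UMI, had mean levels near those of gated cells for Entpd1 (160 CPM against 176) and Gzmb (482 against 562), and lower Cxcr6 (735 against 1165). The 2069 Pdcd1+ Tcf7+ Havcr2- Mki67- cells had 8.4 CPM Entpd1, 37.0 CPM Gzmb and 125 CPM Cxcr6. Tmsb10, which encodes an actin-binding thymosin, was lower step by step along the same series, from 8461 CPM in the Tcf7+ cells and 5677 in Pdcd1+ cells with neither Tcf7 nor Havcr2 to 3077 in gated cells.

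**Figure D2:**
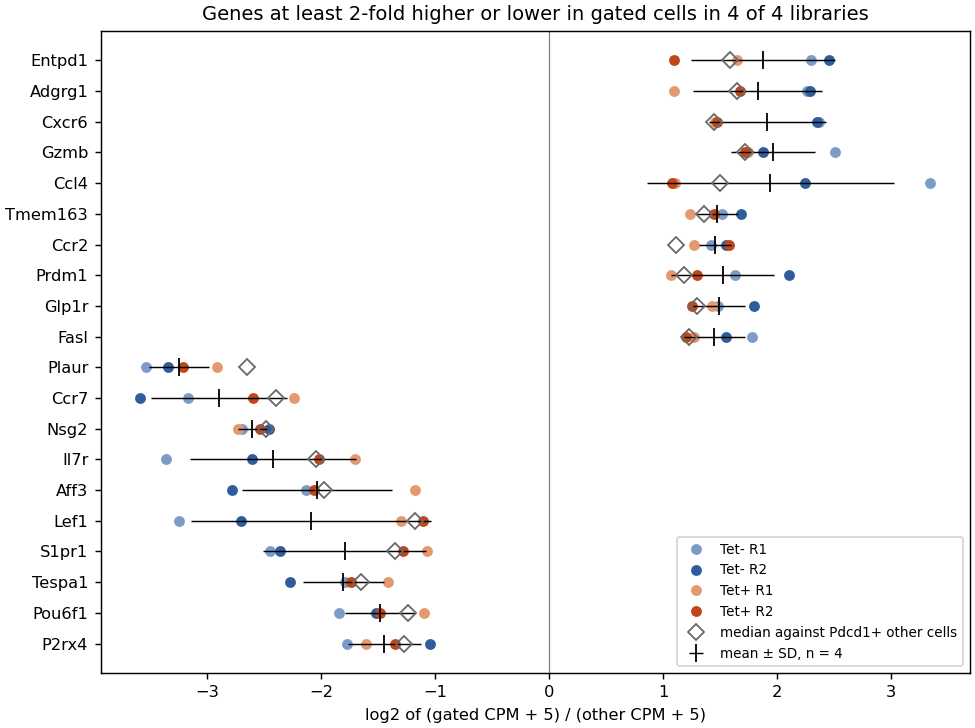
Log2 ratio of gated to other cells (x axis, after adding 5 CPM to both) for the 10 genes highest and the 10 lowest in gated cells by the naming rule. Filled points are the 4 libraries, black ticks with bars are the mean ± SD, and open diamonds are the median against Pdcd1+ other cells alone. Points of 1 gene lie on 1 side of 0 in every library because the genes were chosen that way. Means run from 1.97 ± 0.37 for Gzmb to -3.25 ± 0.26 for Plaur.

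The tetramer sort was not used by the gate, so the next comparison asks whether gated cells that bind the IGRP mimic differ from gated cells that do not. In edgeR's quasi-likelihood test on summed counts, 3 of 7667 genes passed a Benjamini-Hochberg adjusted p under 0.05 (0.0391%), and 260 had an unadjusted p under 0.05. All 3 were TCR beta variable segments, named here after their values were seen. Trbv13-3 (GRCm38 chr6:41130147-41130585, + strand) stood at 65.4, 57.5, 925 and 1531 CPM, higher by 4.38 (SE 0.32) on the log2 scale in tetramer-positive gated cells with edgeR adjusted p = 0.012. Trbv29 stood at 94.1, 129, 0 and 3.37 CPM (-5.64, SE 0.53, edgeR adjusted p = 0.0326) and Trbv3 at 377, 522, 52.9 and 34.5 (-3.29, SE 0.33, edgeR adjusted p = 0.0326). Over the alternatives the adjusted p reached 0.0161 for Trbv13-3, 0.226 for Trbv29 and 0.372 for Trbv3. Outside the gate, the same test called 27 of 11848 genes (0.228%).

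Libraries of 1 round came from the same pool of mice, and with the round as a block the edgeR test called 133 of the 7667 genes (1.73%), of which 30 were higher and 103 lower in tetramer-positive gated cells. They included the 3 segments above, 16 other antigen receptor segments and 114 other genes, 26 higher and 88 lower. The TCR gamma gene Tcrg-C4 was counted with the other genes. Apart from the 3 segments, none of these 133 genes passed in the edgeR test without the block. With no block and no filter on low counts Il7r, S1pr1, Itgae, Cd226 and Gzma did pass (edgeR adjusted p = 1.46e-06, 0.000411, 3.71e-05, 0.0124 and 0.00147), and Plac8 did with DESeq2 (adjusted p = 0.00856). The fit with round as a block, which gave the 133 calls, leaves 1 residual degree of freedom per gene and borrows the spread from all genes. Over all alternatives, edgeR and DESeq2 included, the adjusted p of Il7r, S1pr1, Itgae, Cd226, Ikzf2, Klrc1, Stmn1 and Gapdh reached 0.99997, and that of Gzma 0.9997.

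Of the homing and residence list, 5 of 21 tested genes were lower in tetramer-positive gated cells under the block and 0 higher, where 1.73% of all genes were called. Of the progenitor list, 2 of 15 were lower. Il7r, of that list, changed by -4.29 (SE 0.69) with edgeR adjusted p = 1.62e-07, and S1pr1 by -2.50 (SE 0.46, edgeR adjusted p = 1.02e-05). Both were among the genes already low in gated cells as a whole. Itgae, the CD103 integrin chain that binds E-cadherin on epithelium, stood at 58.2, 66.4, 5.57 and 24.4 CPM (-1.87, SE 0.29, edgeR adjusted p = 3.59e-08). Plac8, at 34.1, 43.9, 2.79 and 2.52 CPM, changed by -3.82 (SE 0.47, edgeR adjusted p = 2.29e-13). Cd226, the activating counterpart of TIGIT, stood at 55.6, 81.8, 23.7 and 28.6 CPM (-1.34, SE 0.26, edgeR adjusted p = 5.32e-05). Every tetramer-positive library was below every tetramer-negative one for these 3 genes. Gzma, a granzyme of a separate substrate class, stood at 257, 364, 183 and 60.6 CPM (-1.43, SE 0.18, edgeR adjusted p = 3.95e-13), with no overlap. Nfkbiz and Ubr3 were also among the 10 lowest genes by the naming rule. Outside the gate the same blocked fit gave -3.58 for Il7r, -3.29 for S1pr1, -1.96 for Itgae, -4.53 for Plac8, -1.59 for Nfkbiz and -2.74 for Gzma. Of these genes only Gzma passed the interaction test described below, so the other differences were not shown to be particular to the gate.

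Class II genes headed the same list: Cd74, the invariant chain, stood at 606, 121, 2.79 and 12.6 CPM in gated cells (-4.88, SE 0.27, edgeR adjusted p = 3.06e-68 with the block), and H2-Ab1, H2-Aa and H2-Eb1 fell with it. They moved with the 6 class II-bearing cells noted above. Without those cells the Cd74 difference was 0.12 in the test without a block.

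Higher in tetramer-positive gated cells under the block were Ikzf2, which encodes the Ikaros-family factor Helios, at 116, 52.2, 132 and 154 CPM (0.97, SE 0.18, edgeR adjusted p = 2.49e-05), and Klrc1 (0.60, SE 0.16, edgeR adjusted p = 0.0127). Stmn1, a microtubule-destabilizing protein of dividing cells, stood at 145, 57.5, 228 and 83.3 CPM (0.69, SE 0.18, edgeR adjusted p = 0.0143), where the groups overlapped and the rise was within each round. Over the alternatives its difference ran from -0.30 to 1.60. Hells, a chromatin remodeler of replicating cells, rose by 1.00 (SE 0.26, edgeR adjusted p = 0.0123) and Gapdh, the glycolytic enzyme, by 0.63 (SE 0.16, edgeR adjusted p = 0.00688). Prdx3, a mitochondrial peroxidase, rose by 0.78 (SE 0.21, edgeR adjusted p = 0.0142). The others named by rule were Hist1h2ae, the TCR gamma gene Tcrg-C4, Reep4, Nudt5, Uqcc2 and Tmem256. Outside the gate the same fit gave 1.39 for Ikzf2, 1.44 for Stmn1, 1.12 for Hells and 0.32 for Prdx3. Of these genes only Stmn1 passed the interaction test described below (-0.77, SE 0.17, edgeR adjusted p = 0.00396), its rise being smaller in the gate. By list, and beside the 1.73% of all genes called, the lower genes under the block were 3 of 10 cytokine genes (Ccl4, Xcl1 and Tgfb1), 5 of 21 homing genes (S1pr1, Itgae, Itgb7, Cd69 and Klf2), 4 of 15 inhibitors of TCR signaling (Itpkb, Dusp2, Dusp5 and Nfkbia), 2 of 15 progenitor genes (Il7r, Lef1), 1 of 12 costimulatory receptors (Cd226), 1 of 16 cytotoxic genes (Gzma) and 1 of 12 interferon-stimulated genes (Ifit1). The higher ones were 2 of 7 lectin-like receptors (Klrc1, Klrk1), 2 of 12 glycolytic genes (Gapdh, Eno1), 1 of 15 cell cycle genes (Stmn1) and 1 of 23 transcription factors (Ikzf2). The block called 0 of 16 coinhibitory receptors and 0 of 11 S100, annexin and galectin genes.

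The difference between gated and other cells in how they varied with the tetramer sort was tested directly, as an interaction with library as a block. It called 467 of 10002 genes (4.67%), 213 with a more positive tetramer difference in gated cells (2.13%) and 254 with a more negative one (2.54%), while 1418 had an unadjusted p under 0.05. With round as a block in place of the library it called 77. A Pdcd1 UMI was present in 35.3%, 30.9%, 66.5% and 69.1% of other cells and, by rule, in every gated cell. The make-up of the other cells thus changed with the tetramer sort, and the interaction is not independent of the gate. Of other cells with a paired TCR, 1147 of 2876, 1636 of 5283, 413 of 590 and 732 of 1031 were Pdcd1+. Against Pdcd1+ other cells alone the test called 40 of 9661 genes (0.414%), all of them among the 467. Of the lists, the effector and exhaustion factors had 13 of 23 genes lower against all other cells but 2 against Pdcd1+ cells, the S100, annexin and galectin list 10 of 12 but 2, the coinhibitory receptors 7 of 18 but 0, and the killer lectin-like receptors 6 of 7 but 0. Progenitor genes had 5 of 20 and interferon-stimulated genes 4 of 13 on the positive side, and 0 of either against Pdcd1+ cells.

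Xcl1, the lymphotactin that draws XCR1+ dendritic cells, showed the clearest such difference among the cytokines. It stood at 671, 339, 305 and 171 CPM in gated cells, 475, 509, 643 and 715 in Pdcd1+ other cells and 298, 288, 677 and 687 in all other cells. Tetramer-positive libraries were thus lower than tetramer-negative ones inside the gate and higher outside it. The interaction was -2.22 (SE 0.19, edgeR adjusted p = 1.39e-09) against all other cells and -1.54 (SE 0.19, edgeR adjusted p = 8.82e-06) against Pdcd1+ cells. Ccl4 followed the same pattern, with 201, 200, 264 and 268 CPM in Pdcd1+ other cells and an interaction of -1.65 (SE 0.17, edgeR adjusted p = 5.17e-08) against all other cells and -1.21 (SE 0.16, edgeR adjusted p = 8.82e-06) against Pdcd1+ cells. The values of both genes in gated cells were highest in tetramer-negative round 1, the library with the highest class II level. Without the class II-bearing cells the interaction against all others was -2.25 for Xcl1 and -1.68 for Ccl4.

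In the next genes the interaction is given against Pdcd1+ other cells, followed by its size against all other cells. Rgs16, a brake on chemokine receptor signaling, stood at 1116, 826, 805 and 861 CPM in gated cells and 574, 484, 689 and 700 in Pdcd1+ other cells (-0.59, SE 0.08, edgeR adjusted p = 2.59e-05, and -1.23). Tox stood at 235, 187, 309 and 293 CPM in Pdcd1+ other cells and was level in gated cells, as given above (-0.48, SE 0.12, edgeR adjusted p = 0.0375, and -1.05). Eomes, a T-box factor of memory and exhausted cells, was at 168, 200, 111 and 167 CPM in gated cells and 145, 150, 137 and 204 in Pdcd1+ others (-0.60, SE 0.14, edgeR adjusted p = 0.0221, and -1.05). Dusp4, a phosphatase acting on ERK (-0.55, SE 0.13, edgeR adjusted p = 0.0419, and -1.22), Lgals1 (-0.29, SE 0.06, edgeR adjusted p = 0.0208, and -0.82) and Lgals3 (-0.57, SE 0.12, edgeR adjusted p = 0.00731, and -1.10), both galectins, also passed against Pdcd1+ cells. Gzma went the other way, at 203, 180, 31.6 and 33.0 CPM in Pdcd1+ others, so that its tetramer difference was less negative inside the gate (1.04, SE 0.24, edgeR adjusted p = 0.0251, and 1.29). Against all other cells the Gzma interaction was 0.38 without tetramer-positive round 1, and with round as a block its edgeR adjusted p was 0.202. Under 13 alternatives the interactions of Xcl1, Rgs16, Tox, Eomes, Dusp4, Lgals1 and Lgals3 passed in 13, that of Ccl4 in 12 (highest adjusted p = 0.0877 over edgeR and DESeq2) and that of Gzma in 8 (highest 0.999).

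Entpd1, Lag3 and Cxcr6 passed against all other cells and missed the threshold against Pdcd1+ cells. Entpd1 had an interaction of -1.12 (SE 0.16, edgeR adjusted p = 1.11e-05) against all other cells and an edgeR adjusted p of 0.121 against Pdcd1+ cells. For Lag3 the values were -0.92 (SE 0.10, edgeR adjusted p = 4.48e-08) and 0.145, and for Cxcr6 -0.82 (SE 0.08, edgeR adjusted p = 3.14e-08) and 0.649. Ccr7 and Lef1 passed against all other cells (1.02 and 1.70, edgeR adjusted p = 0.000594 and 0.00602), and against Pdcd1+ cells their interactions were -0.15 and -0.03 with edgeR adjusted p of 0.972 and 1. With round as a block in place of the library, the edgeR adjusted p of Lef1 was 0.0582.

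**Figure D3:**
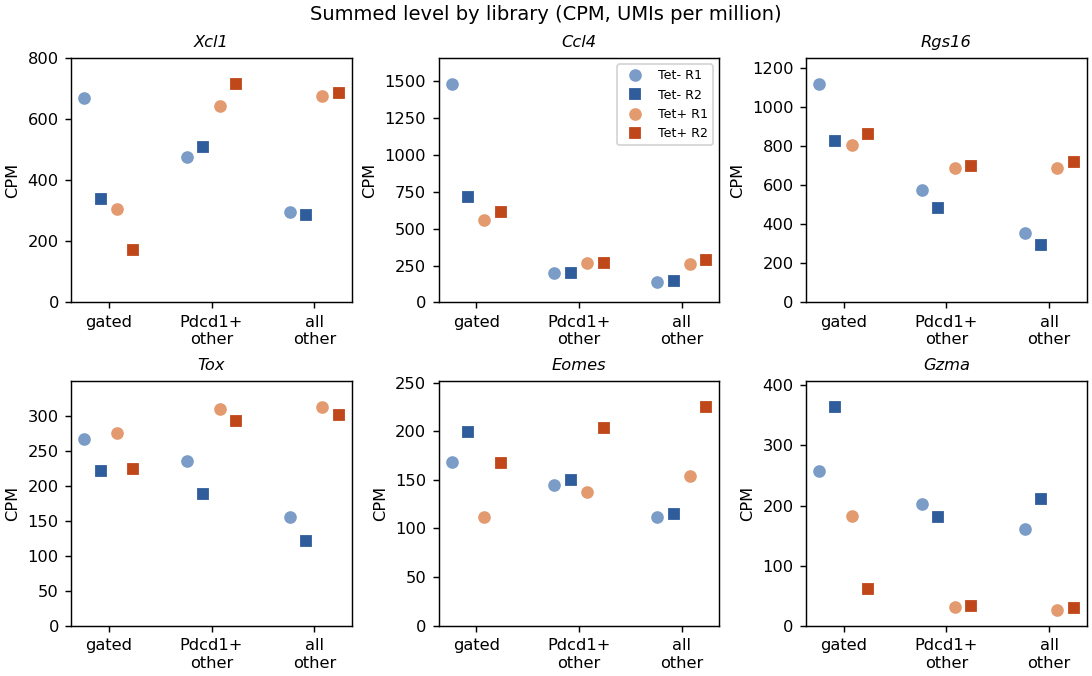
Summed level in CPM (y axes from 0) of 6 genes in gated cells, Pdcd1+ other cells and all other cells. Each point is 1 of the 4 islet libraries, blue for tetramer-negative and orange for tetramer-positive, with circles for round 1 and squares for round 2. Xcl1 was lower in the tetramer-positive gated libraries (305 and 171 CPM) than in the tetramer-negative ones (671 and 339) and higher outside the gate.

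TCR sequences were not used by the gate and give a separate readout. Cells with 1 productive alpha and 1 productive beta chain numbered 116, 200, 83 and 160 in the gate (58.9%, 68.3%, 64.8% and 78.0% of gated cells), and a clone was defined by the paired CDR3 nucleotide sequences, the junctions that contact peptide. Of these cells, 93.1%, 93%, 100% and 100% had at least 1 other cell with their receptor in the library, against 52.0%, 44.3%, 98.0% and 98.6% of the other cells. The share was higher in the gate in 4 of 4 libraries, by 23.3 percentage points on average, and the exact paired permutation test gave p = 0.125, two-sided, the smallest that 4 pairs allow and also its adjusted value over 3 TCR measures. The gap lay in the tetramer-negative libraries, since nearly all tetramer-positive cells were expanded. Against Pdcd1+ other cells alone it was 13.7, 17.6, 1.94 and 1.23 points. Without tetramer-negative round 2 the average over libraries was 14.8 points.

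In the tetramer-negative libraries the median gated cell sat in a clone of 10 cells in round 1 and 25 in round 2, where the median other cell sat in one of 2 and 1. In the tetramer-positive libraries the medians were 86 and 62 in the gate and 73 and 52 outside it. Clones also found in the tetramer-positive spleen of the same round held 28.4%, 11.5%, 98.8% and 96.9% of gated cells against 10.8%, 3.09%, 93.2% and 95% of others. This difference averaged 8.39 points, in 4 of 4 libraries, with exact paired permutation p = 0.125, and 5.30 points without tetramer-negative round 1. In the tetramer-negative libraries the gated share rested on few clones. There, 1 clone held 24 of the 33 gated cells of such clones in round 1, and 1 clone held 12 of 23 in round 2.

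**Figure D4:**
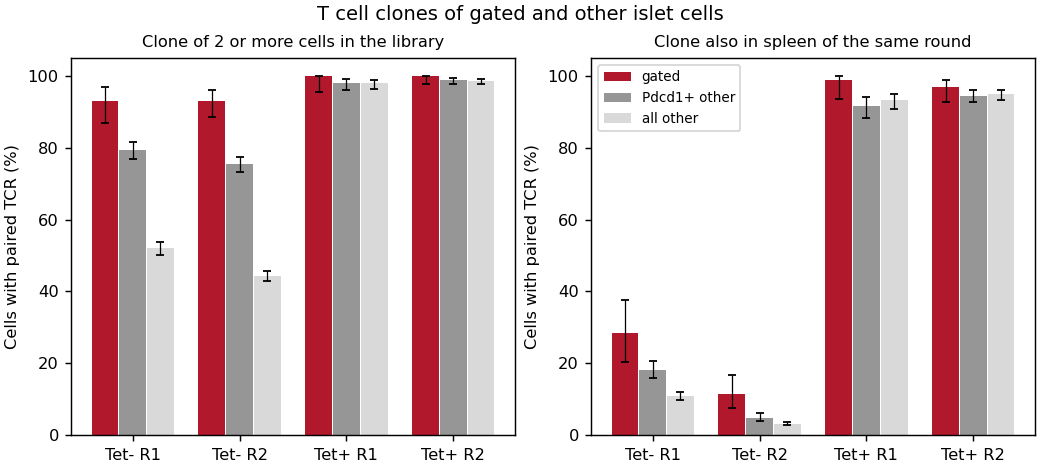
Percent of cells with a paired TCR (y axis) whose clone had 2 or more cells in the library (left) or was also in the tetramer-positive spleen library of the same round (right). Bars stand for gated, Pdcd1+ other and all other cells of the 4 islet libraries, and error bars are exact 95% intervals for counting error. In the tetramer-negative libraries 93.1% and 93% of gated cells were in such expanded clones, against 52.0% and 44.3% of all other cells.

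The number of clones with gated cells has to be read beside the number of clones in each library. Gated cells fell into 56 of 1626 and 91 of 3360 clones in the tetramer-negative libraries. In the tetramer-positive ones they fell into 18 of 42 and 28 of 57. The largest clone held 20.7%, 7%, 32.5% and 27.5% of the gated cells. TRAV16N (gene Trav16n, GRCm38 chr14:53351028-53351621, + strand) joined to TRAJ42, an alpha chain used by IGRP-reactive cells, was found in 0.862%, 1%, 88.0% and 98.8% of gated cells and in 0.417%, 0.341%, 85.1% and 98.1% of others. That is a mean difference of 1.17 points (exact paired permutation p = 0.125). It was 0.598 without tetramer-positive round 1, 0.605 against Pdcd1+ cells and 0.585 where the chain with most UMIs was kept in cells with several, with tetramer-positive round 2 then lower in the gate. Many gated cells with a paired TCR had relatives in other states. A Pdcd1+ Tcf7+ clonemate was present for 61.2%, 69%, 90.4% and 91.2% of them and a cycling Havcr2+ Pdcd1+ clonemate for 42.2%, 51.5%, 66.3% and 75%. The same shares were not computed for other cells, and larger clones hold more states, so they are not a trait shown to be particular to the gate.

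How much of a clone entered the gate varied. Clones of at least 10 cells numbered 30, 63, 14 and 22, of which 13, 24, 1 and 2 had no gated cell. The median share in the gate was 4.13%, 6.67%, 10% and 11.8%, and the highest 28.6%, 27.3%, 26.3% and 38.7%. The largest gated clone of tetramer-negative round 1, TRAV6N-7/TRAJ18 with TRBV16/TRBJ2-2, had 24 of its 232 cells in the gate (10.3%).

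**Figure D5:**
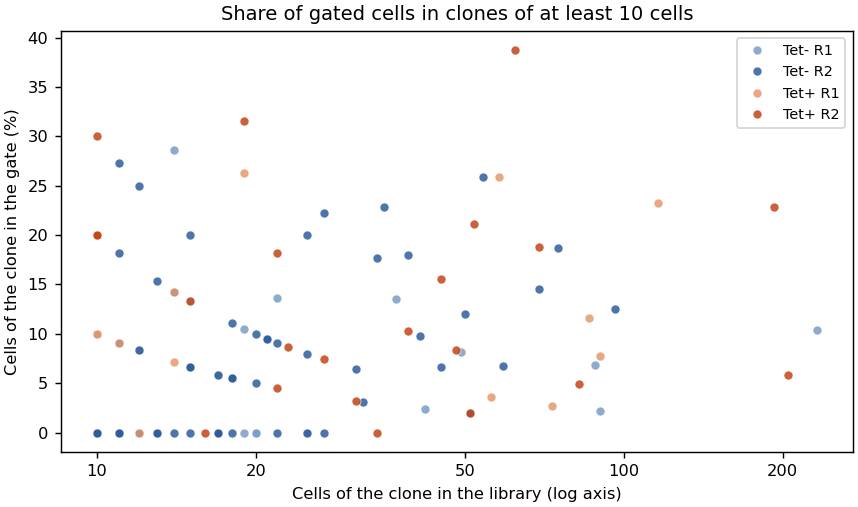
Share of each clone's cells in the gate (%, y axis) against the number of cells of the clone in its library (x axis, log scale), for clones of at least 10 cells in the 4 islet libraries. Each point is 1 clone, and shares spread from 0 to 38.7%.

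Because tetramer-positive clones reuse TRAV16N-TRAJ42 and TRBV13-3, several differ in nucleotides while encoding the same alpha and beta CDR3 amino acids, and these show how far clones of 1 receptor protein can differ in gate share. In tetramer-positive round 1, 3 such clones of TRBV13-3/TRBJ2-4 had 27 of 116 cells in the gate (23.3%, exact 95% interval 15.9 to 32.0), 7 of 90 (7.78%, 3.18 to 15.4) and 2 of 73 (2.74%, 0.333 to 9.55). The interval of clone A, the first of these, did not overlap those of clones B and C. Their CDR3 sequences are printed 5′ to 3′, and capitals mark the bases that differ from clone A.
Clone A, alpha: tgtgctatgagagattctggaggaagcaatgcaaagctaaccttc
Clone A, beta: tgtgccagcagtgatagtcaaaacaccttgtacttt
Clone B, alpha: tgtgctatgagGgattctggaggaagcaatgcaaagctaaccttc
Clone B, beta: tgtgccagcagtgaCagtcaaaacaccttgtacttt
Clone C, alpha: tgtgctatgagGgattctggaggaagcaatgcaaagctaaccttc
Clone C, beta: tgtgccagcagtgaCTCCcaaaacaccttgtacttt
Clone B differs from clone A at 2 bases and clone C at 5. In round 2 the sequences of clone A were found again, with 1 of 31 cells in the gate (3.23%, 0.0816 to 16.7), and those of clone B with 2 of 3 cells (66.7%, 9.43 to 99.2). The intervals of clone A in the 2 rounds met only between 15.9 and 16.7, and clone B had only those 3 cells. Their overlap therefore does not show that the rounds agree. In round 2 the other clones of at least 10 cells with this receptor protein had 18.8%, 4.88% and 30% in the gate, all above clone A. These shares count cells of 1 pool each, so they describe the clones in those libraries.

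Round 2 held another such pair with TRBV13-3/TRBJ2-7 and the highest gate share of any clone of at least 10 cells, 24 of 62 cells (38.7%), beside 4 of 22 cells in the clone that shares its beta chain sequence and differs at 1 alpha base, again in capitals.
Larger clone, alpha: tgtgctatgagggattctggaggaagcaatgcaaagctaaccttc
Smaller clone, alpha: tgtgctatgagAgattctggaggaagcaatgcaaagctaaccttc
Both clones, beta: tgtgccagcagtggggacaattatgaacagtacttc
The clone with most gated cells in round 2 used TRBJ2-2 and had 44 of 193 cells in the gate (22.8%). Its TRBJ segment ranked first by gate share in both rounds, at 25.4% (15 of 59 tetramer-positive cells) and 20.8% (46 of 221), where TRBJ2-4 had 56 of 432 and 40 of 466. TRBJ2-7 changed place, with 6.37% in round 1 and 16.5% in round 2. Each of these shares rests on a few large clones, so the segment and the clone cannot be told apart.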

How the data were processed

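Gene counts of 6 single-cell RNA libraries were used as the authors deposited them: raw UMI counts of 32285 genes, made with Cell Ranger (5.0.1 in the file header) on mm10 from 10x 5′ libraries. The deposited TCR contig tables hold productive contigs only. The members, gene lists and tests were chosen with earlier results of these data known.

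Cells were filtered, gated and thinned (random seed 1) in Python 3.11.15 with numpy 2.4.6, pandas 2.3.3 and scipy 1.17.1, and figures drawn with matplotlib 3.10.9. Counts were summed per library in gated and other cells. Genes with a mean of at least 5 CPM over all these sums, gated and other together, were described. Tests used edgeR 4.0.16 (TMM, filterByExpr, quasi-likelihood) with limma 3.58.1 in R 4.3.3, and DESeq2 1.42.0 as an alternative, with Benjamini-Hochberg adjustment over all genes tested. On simulated data, 99.5% of 200 genes changed 4-fold were recovered in the tetramer comparison of gated cells, with 7 false calls among 7669 genes. The simulation held no difference between rounds, took its spread from the fit with round as a block, and changed only genes of at least 20 CPM. The real libraries differ between rounds, so the recovery does not give the power of the test without a block. Shares have exact Clopper-Pearson 95% intervals and exact permutation tests over libraries. Nothing in the labels says that the 2 libraries of a group are separate in more than their round and pool. No doublet caller was run, and cells with more than 1 beta chain (1.95% to 3.55% of gated cells) were left out as an alternative.

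In the alternative with round as a block, rounds were taken as pairs because the libraries of a round share a pool of mice. The main tetramer tests in gated and in other cells, and the permutation test of the gate share, did not use this pairing. Deviations of the tetramer groups from their means correlated within rounds at r = 0.657 over 5537 genes in gated cells and 0.847 over 5494 in others (across genes, which are not independent).

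Genes were named by rule: the 10 largest median ratios in each direction among those called with at least 20 CPM on the higher side, up to 10 per direction in the tetramer test and 5 in the interaction with the same direction in both rounds, up to 6 members of each of 21 lists with the highest CPM or a passed test, and the gate genes and markers. TCR segments named outside it are given as such. Coordinates and annotation are RefSeq's for GRCm38, which matched 99.6% of gene symbols, and 2 list genes (Aldoa, listed more than once, and Mx1) were not matched. Alternatives covered normalization, filters, test, gate, depth, doublets, left-out libraries and the round block.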

Additional observations from a re-analysis of the deposited data

Results flagged for a closer look

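By the naming rule, 10 genes had a tetramer difference in gated cells that departed from that in other cells, as tested by the edgeR interaction. Toward the positive side these were Pik3ip1, an inhibitor of PI3 kinase (4.30, SE 1.28, edgeR adjusted p = 0.0461), the pancreatic enzyme genes Pnlip (4.09, SE 0.50, edgeR adjusted p = 6.47e-07), Clps (3.01, SE 0.43, edgeR adjusted p = 8.95e-06) and Try4 (3.0, SE 0.42, edgeR adjusted p = 5.82e-06), and Dtx1, a Notch pathway ligase (2.99, SE 0.66, edgeR adjusted p = 0.00343). Pik3ip1 stood at 1.79, 1.19, 1.39 and 1.68 CPM in gated cells against 20.1, 25.3, 0.97 and 1.62 in others, so it was low in gated cells of every library. Pnlip stood at 0.90, 7.71, 1.39 and 30.3 CPM in gated cells, and without tetramer-positive round 2 the interactions of Pnlip, Clps, Try4 and Dtx1 were 2.08, 1.80, 0.83 and 0.75 and did not pass.

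Toward the negative side these were Cxcl9, an interferon-induced chemokine (-6.26, SE 1.00, edgeR adjusted p = 5.43e-05), H2-Ab1 (-5.50, SE 0.76, edgeR adjusted p = 5.33e-06), H2-Eb1 (-5.06, SE 0.88, edgeR adjusted p = 0.000193), Cd74 (-4.31, SE 0.61, edgeR adjusted p = 7.14e-06) and H2-Aa (-3.98, SE 0.74, edgeR adjusted p = 0.000525), the latter 4 of the class II pathway. Cxcl9 stood at 76.2, 1.78, 0 and 0.84 CPM in gated cells, and without tetramer-negative round 1 its interaction of -4.70 did not pass. The class II genes moved with the 6 gated cells that carried at least 10 class II UMIs.

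Against Pdcd1+ other cells alone, Pik3ip1 (2.18, edgeR adjusted p = 0.859) and Dtx1 (1.66, edgeR adjusted p = 0.612) did not pass and the other 8 did. With round as a block in place of the library, the edgeR adjusted p was 0.130 for Pik3ip1, 0.0618 for Clps, 0.0524 for Dtx1, 0.195 for Cxcl9, 0.0582 for H2-Ab1, 0.0945 for H2-Eb1 and 0.143 for H2-Aa, so that only Pnlip, Try4 and Cd74 of the 10 passed.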

How the results depend on the processing

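The count of genes called between tetramer groups in gated cells (3) was 133 with the round as replicate block, 60 with no filter on low counts, 12 with DESeq2, and 1 to 51 with 1 library left out. In other cells (27) it was 3433 with the block, 263 with no filter, 393 with DESeq2, and 0 to 246 with 1 library left out, 0 without either tetramer-positive library. The interaction count (467) was 77 with round as a block in place of the library, 168 with DESeq2, 280 with no upper gene limit, and, in alternatives chosen after seeing the data, 178 with cells thinned to 1000 UMIs and 40 against Pdcd1+ cells, with 285 to 430 when 1 library was left out. Genes called between gated and other cells (29) numbered 66 with 1 CPM added, 9 with 20 CPM, 152 at 1.5-fold and 36 to 46 without 1 library. With class II-bearing cells left out (also chosen after seeing the data) the interaction reversed for Cd74 (0.50) and H2-Aa (1.12), and against Pdcd1+ cells for Ccr7 (-0.15) and Lef1 (-0.032). Of the interaction results of single genes, 303 kept direction and side of the threshold, 54 lost the threshold and 4 reversed. The difference in gate share was 7.46 to 9.66 points without 1 library, 1.92 with cells thinned and 4.07 with at least 2 Havcr2 UMIs, and every alternative run kept its direction and those of the 3 TCR shares. Among single genes the round block also ended the interaction calls of Gzma, Lef1 and 7 of the 10 genes above. Between tetramer groups in gated cells it added calls, among them Il7r, S1pr1, Itgae and Plac8. The interaction counts by list are from the fits with library as a block and were not counted under the round block. Causes were not tested. A gated library of at most 293 cells limits what can be called for genes of few UMIs.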
